A study of Mus musculus with 8 samples.

Results

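Transcript levels of 10 genes of the Notch pathway were compared between mouse lung cell libraries labelled Ad-control and Ad-KLK8. The genes were taken by symbol from a table of 21878 genes, and each had exactly 1 row there. They are the receptors Notch1, Notch2 and Notch3, the ligands Jag1, Jag2 and Dll1, and the targets Hes1, Hey1, Heyl and Nrarp. KLK8, the secreted serine protease kallikrein-related peptidase 8, is studied in this series for its place in injury of the lung endothelium, and RNA was sequenced from cells that the labels call pulmonary endothelial cells. The group labelled Ad-control and the group labelled Ad-KLK8 hold 4 libraries each, and their labels differ in the treatment alone. No strain, age, dose, duration, meaning of the prefix Ad or species of the KLK8 sequence is stated in the labels, and all 8 libraries share the labelled tissue, lung. Whether the replicates are separate animals or cultures is not stated, so each p-value reflects spread between these libraries, which may be technical.

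Notch signalling passes between touching cells. A Jagged or Delta-like ligand on a cell binds a Notch receptor on its neighbour, ADAM proteases and then gamma-secretase cut the receptor, and the freed intracellular domain enters the nucleus. There it joins the DNA-binding protein RBPJ and Mastermind coactivators and switches on targets such as the HES and HEY repressors. In blood vessels the pathway is known for arterial identity, for the choice between tip and stalk cells during sprouting, and, through Notch3, for smooth muscle and pericytes.

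The labels were checked against Klk8 and against cell type markers, which were named after their values were seen. Klk8 itself stood at 1135, 1403, 1232 and 1422 RPKM (reads relative to gene length and sequencing depth) in Ad-control 1 to 4, and at 1159, 3263, 1354 and 1276 RPKM in Ad-KLK8 1 to 4. The groups overlapped, and the log2 difference of 0.31 was not past the threshold (two-sided exact permutation test, p = 0.657, where 0.0286 is the smallest p possible). After median-of-ratios scaling it was 0.55 (same test, exact p = 0.0857). Without Ad-KLK8 2 the difference was -0.04, so Klk8 does not separate the labelled groups and both are named below only by their labels. Ad-KLK8 2 also lay farthest from the rest of its group across all tested genes, at a root mean square distance of 0.19 log2 units. The others of that group were at 0.11 to 0.119, and the libraries labelled Ad-control at 0.139 to 0.171. Of 15 endothelial markers, 11 were under 1 RPKM, among them Cdh5 (0.0910 RPKM on average under Ad-control) and Pecam1 (0.138 RPKM), which define endothelium, whereas 12 fibroblast markers summed to 2860 to 3110 RPKM and 7 mesothelial markers to 176 to 233 RPKM in the same libraries. The labelled cell type was therefore not borne out by its defining markers. Recovered reads per library numbered 15771853 to 16761415 under the label Ad-control and 17785889 to 18702940 under Ad-KLK8.

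The windows of 250 bases before the start of the gene were searched for letters that RBPJ or the HES and HEY proteins are known to bind. RefSeq windows on build GRCm38.p6 were found for 7 of the 10 genes. Those for Hes1, Hey1 and Heyl were not used here. The motifs, on both strands, were the RBPJ core TGGGAA, its longer form GTGGGAA, the HES and HEY E-box CACGTG and the N-box CACNAG. Neither RBPJ form was in any of the 7 genes' windows, while 21.5% and 5.41% of 27025 genes held them. The E-box was in the window of Nrarp, 108 bases before the start (6.05% of genes), and the N-box in those of Nrarp, Notch1, Notch2 and Notch3 (36.7% of genes). The window of Nrarp, the target with the largest fold, is shown with those of Notch1 and Notch2, the receptors that moved in opposite directions. Capitals mark E-box and N-box matches, the latter reading CTNGTG on the other strand, and no matches overlap. A match is a description of letters and not a site. Nrarp lies at chr2:25180508-25180757 on the plus strand, Notch1 at chr2:26503823-26504072 on the minus strand and Notch2 at chr3:98013288-98013537 on the plus strand.
Nrarp: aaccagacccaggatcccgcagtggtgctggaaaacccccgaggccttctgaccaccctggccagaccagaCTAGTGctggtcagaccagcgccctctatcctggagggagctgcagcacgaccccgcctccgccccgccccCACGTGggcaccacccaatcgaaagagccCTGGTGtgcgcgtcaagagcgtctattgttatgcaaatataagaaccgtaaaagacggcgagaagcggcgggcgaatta
Notch1: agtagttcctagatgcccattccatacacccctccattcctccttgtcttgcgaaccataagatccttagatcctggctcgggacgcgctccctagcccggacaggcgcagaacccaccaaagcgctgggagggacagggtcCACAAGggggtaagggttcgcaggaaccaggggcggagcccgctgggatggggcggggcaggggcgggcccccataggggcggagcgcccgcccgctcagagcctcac
Notch2: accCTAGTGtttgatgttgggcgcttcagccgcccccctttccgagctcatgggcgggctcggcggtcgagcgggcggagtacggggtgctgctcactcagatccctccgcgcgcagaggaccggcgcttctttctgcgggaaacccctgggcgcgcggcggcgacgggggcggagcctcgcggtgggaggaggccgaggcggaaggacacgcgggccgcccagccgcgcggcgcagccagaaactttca

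Between the labelled groups, Notch1, all 3 ligands and the targets Hes1, Hey1 and Nrarp were lower, and Notch2 and Notch3 higher, in the libraries labelled Ad-KLK8. All 9 tested genes passed the threshold of an adjusted p of 0.05 (limma on log2(RPKM + 1), Benjamini-Hochberg over 11998 genes), 2 higher and 7 lower. Heyl was too low to test. Of all tested genes, 77.7% passed, 25.7% higher and 52.0% lower, so passing alone sets the 9 genes little apart. The mean RPKM as deposited was at least 2-fold lower in 6 of the 9, among them Notch1, Jag1 and Hey1, against 16.3% of all tested genes. Notch1, at 2.06-fold, was near that limit, and the count was not made on another scale. The median change of the 9 was -0.92 on the log2 scale, beside -0.19 over all tested genes (-0.70 beside 0.02 after median-of-ratios scaling). Hey1 and Nrarp, both among the 6, passed the filter of a mean of 0.5 RPKM through their level under Ad-control alone. As most genes fell on the deposited scale, changes rescaled by the median of ratios are also given for the 9 tested genes. For the other pathway genes they are given in part, and the remaining changes stand on the deposited scale alone. The rescaling raises the median of all genes by 0.21, to 0.02, with 77.3% of genes past the threshold (39.9% higher and 37.3% lower). It leaves 2 of the 9 higher, 6 lower and Hes1 not past the threshold. The 6 falls were smaller after it. Their log2 changes were -0.70 for Notch1, -0.76 for Jag1, -1.03 for Jag2, -0.53 for Dll1, -1.06 for Hey1 and -0.86 for Nrarp. In these bulk samples fewer cells of a type and less RNA per cell cannot be told apart.

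**Figure D1:**
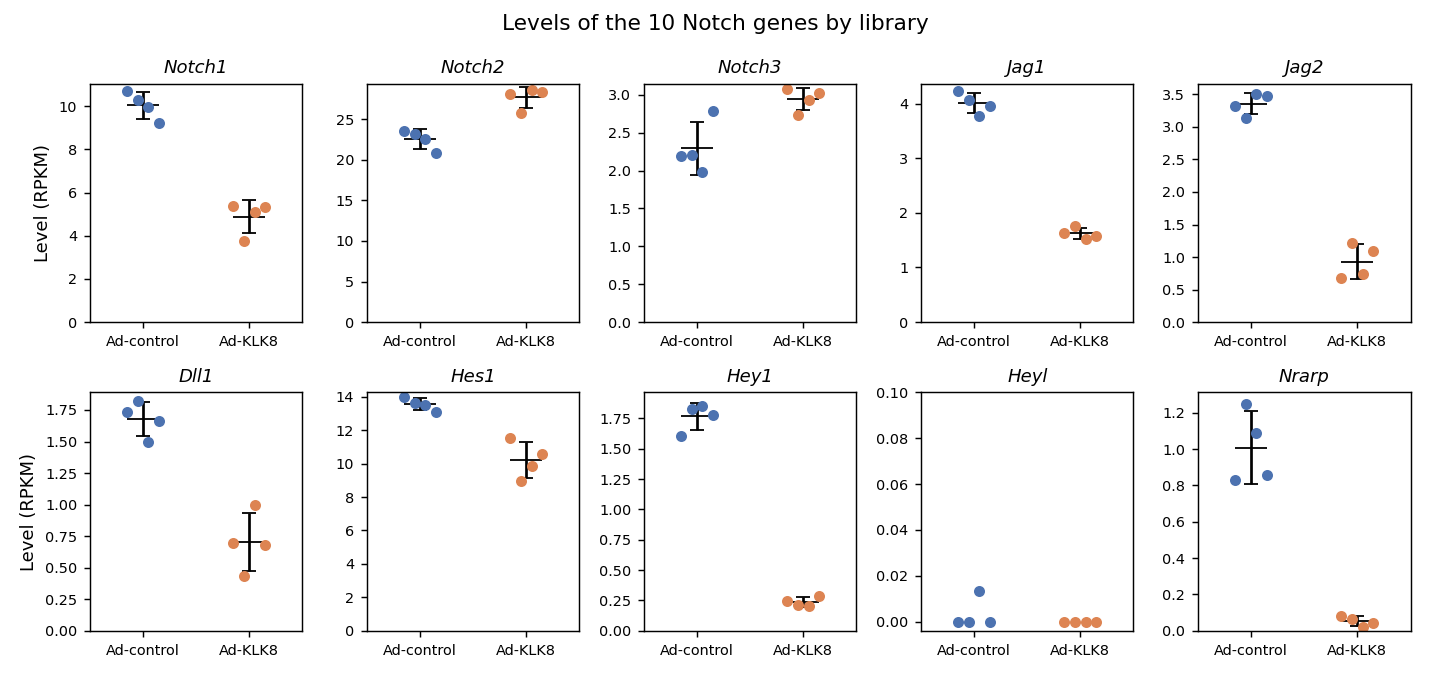
RPKM of the 10 genes by library; each panel is a gene with its own axis from 0, points are libraries (4 per labelled group), and the bar with whiskers is the mean ± SD. The groups overlap for Notch3, where Ad-control 4 reaches 2.79 RPKM, and Heyl is at or near 0 throughout, so it has no mean drawn.

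Under the label Ad-control the levels ran from Notch2 (22.6 RPKM) through Hes1 (13.5), Notch1 (10.03), Jag1 (4.01), Jag2 (3.36) and Notch3 (2.29) to Hey1 (1.77), Dll1 (1.68) and Nrarp (1.01), all mean RPKM per gene length. Hey1 and Dll1 overlapped between libraries, and the other neighbours in that order did not. Under the label Ad-KLK8 Notch2 and Hes1 again led. Notch3 now stood above Jag1, and Hey1 stood below Dll1, while Jag2 and Dll1 overlapped.

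Among the receptors, Notch1 and Notch2 moved apart. Notch1, which in vessels takes part in sprouting and arterial fate, stood at 10.7, 10.3, 9.95 and 9.24 RPKM in Ad-control 1 to 4. In Ad-KLK8 1 to 4 it stood at 5.36, 3.74, 5.11 and 5.31 RPKM. Every library labelled Ad-KLK8 was below every library labelled Ad-control, with Ad-KLK8 2 lowest. The mean fell from 10.03 ± 0.605 to 4.88 ± 0.768 RPKM (SD, n = 4 per group), 2.06-fold lower, with a log2 change of -0.92 (SE 0.0928) and an adjusted p of 5.64e-06.

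Notch2, a widely expressed receptor, was at 23.6, 23.2, 22.6 and 20.8 RPKM in Ad-control 1 to 4 and at 28.1, 25.8, 28.6 and 28.3 RPKM in Ad-KLK8 1 to 4. The groups did not overlap, as for 23.1% of tested genes in this direction, and Ad-KLK8 2 was again the lowest of its group. Its mean rose from 22.6 ± 1.25 to 27.7 ± 1.31 RPKM, 1.23-fold, with a log2 change of 0.28 (SE 0.0509, adjusted p = 0.000424). The change was 0.52 after median-of-ratios scaling.

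Notch3, the receptor best known from smooth muscle and pericytes, measured 2.19, 2.21, 1.98 and 2.79 RPKM in Ad-control 1 to 4 and 3.08, 2.74, 2.93 and 3.02 RPKM in Ad-KLK8 1 to 4. Ad-control 4 lay inside the other group's range. The rise was 1.28-fold, with a log2 change of 0.27 (SE 0.0774, adjusted p = 0.00917). The change was 0.44 after median-of-ratios scaling and 0.63 by voom. Smooth muscle and pericyte markers summed to 714 to 1040 RPKM under Ad-control and 841 to 1130 RPKM under Ad-KLK8, of 10 genes, with Higd1b at 0 and Rgs5, Kcnj8 and Cspg4 under 0.5 RPKM. Of the 6 tested, 1 was higher, 2 lower and 3 not past the threshold, beside 25.7% of all tested genes higher and 52.0% lower. The part of these markers in the result was not tested.

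The summed level of the 3 receptors overlapped between the groups while their makeup differed. The sum was 34.9 ± 1.58 RPKM under Ad-control (32.8 to 36.5) and 35.5 ± 2.19 RPKM under Ad-KLK8 (32.2 to 36.6). Notch1 made up 28.7 ± 0.46% of that sum in the libraries labelled Ad-control and 13.7 ± 1.41% in those labelled Ad-KLK8. Notch2 made up 64.7 ± 0.924% and 78.0 ± 1.33%. Neither share overlapped between the groups, while the share of Notch3 (6.6 ± 1.28% and 8.29 ± 0.223%) did. These shares do not depend on a factor that scales a whole library. The ratio of Notch2 to Notch1 was 2.21 to 2.28 under Ad-control and 5.25 to 6.89 under Ad-KLK8. The remaining receptor, Notch4, best known from endothelium, was too low to test, at 0.346 ± 0.0911 and 0.106 ± 0.0224 RPKM from 149 and 52 reads.

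**Figure D2:**
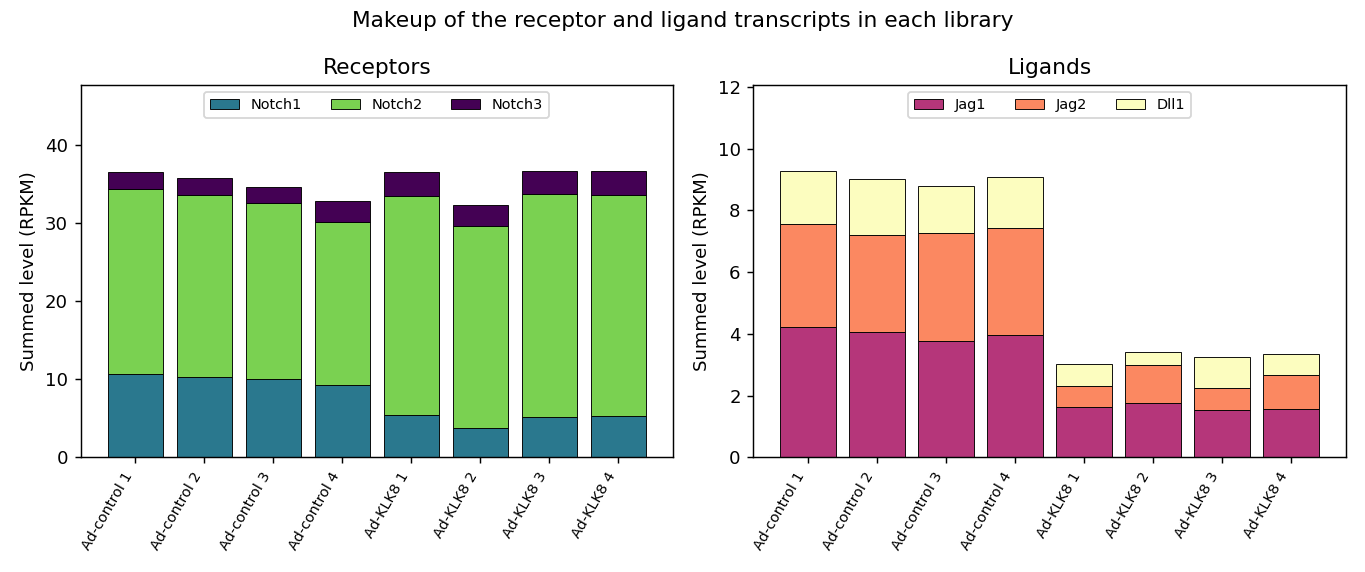
Makeup of the summed RPKM of the 3 receptors and of the 3 ligands in each of the 8 libraries, as stacked bars from 0. Notch1 takes 28.1% to 29.3% of the receptor sum under Ad-control and 11.6% to 14.6% under Ad-KLK8, and the ligand sum is 8.78 to 9.28 RPKM under Ad-control and 3.01 to 3.41 RPKM under Ad-KLK8.

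All 3 ligands were lower in the libraries labelled Ad-KLK8, with no overlap between groups, as 49.1% of tested genes were. Jag1, the Jagged ligand of vessel walls, read 4.23, 4.07, 3.78 and 3.96 RPKM in Ad-control 1 to 4, and 1.64, 1.76, 1.52 and 1.57 RPKM in Ad-KLK8 1 to 4. Libraries within each group lay close together, and the mean fell from 4.01 ± 0.189 to 1.62 ± 0.102 RPKM, 2.47-fold. Its log2 change was -0.93 (SE 0.0567, adjusted p = 1.15e-07).

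Jag2, its close relative, had the largest change of the 10 genes on the log2(RPKM + 1) scale as deposited. Its values were 3.32, 3.14, 3.50 and 3.47 RPKM in Ad-control 1 to 4, and 0.679, 1.22, 0.732 and 1.09 RPKM in Ad-KLK8 1 to 4. The mean fell 3.60-fold, from 3.36 ± 0.166 to 0.931 ± 0.266 RPKM, with a log2 change of -1.18 (SE 0.0939, adjusted p = 8.62e-07). Ad-KLK8 2 and 4 were above Ad-KLK8 1 and 3, so the spread within that group exceeded the spread under Ad-control.

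Dll1, the Delta-like ligand of the set, was at 1.73, 1.82, 1.5 and 1.66 RPKM in Ad-control 1 to 4, and at 0.698, 0.436, 1.0 and 0.677 RPKM in Ad-KLK8 1 to 4. It fell 2.38-fold, with a log2 change of -0.66 (SE 0.0963, adjusted p = 9.41e-05). Ad-KLK8 3 held the highest and Ad-KLK8 2 the lowest of the lower group. The summed level of the 3 ligands was 9.04 ± 0.208 and 3.26 ± 0.174 RPKM. Within that sum the share of Jag1 was 43.0% to 45.6% under Ad-control and 46.7% to 54.3% under Ad-KLK8, without overlap. The share of Jag2 overlapped between the groups, at 34.8% to 39.8% under Ad-control and 22.5% to 35.7% under Ad-KLK8. Dll4, the Delta-like ligand of sprouting vessels, had 7 reads under Ad-control and 5 under Ad-KLK8 in all, which is too few to compare.

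Among the targets, Hey1 and Nrarp had the largest ratios between the groups. Hey1, a repressor with a role in arterial fate, was at 1.60, 1.83, 1.85 and 1.78 RPKM in Ad-control 1 to 4, and at 0.246, 0.209, 0.201 and 0.287 RPKM in Ad-KLK8 1 to 4. Its mean fell 7.49-fold, from 1.77 ± 0.113 to 0.236 ± 0.0396 RPKM, with a log2 change of -1.16 (SE 0.0615, adjusted p = 4.45e-08). The log2(RPKM + 1) scale understates this change, because the lower group lies under 1 RPKM. By reads, 278 against 42, the rate was 7.48-fold lower (95% exact interval 5.39 to 10.6, counting error only).

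Nrarp, a target that feeds back by limiting Notch signalling, was at 0.831, 1.25, 1.09 and 0.859 RPKM in Ad-control 1 to 4, and at 0.0837, 0.0653, 0.0209 and 0.0414 RPKM in Ad-KLK8 1 to 4. These are 36, 51, 46 and 36 reads against 4, 3, 1 and 2. The libraries labelled Ad-KLK8 thus held almost no Nrarp reads, and 169 against 10 reads gives a rate 19.1-fold lower, with an interval of 10.1 to 40.5 that covers counting error only. The log2 change was -0.93 (SE 0.0799, adjusted p = 1.62e-06). When any library labelled Ad-control was left out, the mean of Nrarp was under the filter and it was not tested.

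Hes1, the most abundant target here and a repressor that also receives other signals, was at 14.0, 13.6, 13.5 and 13.1 RPKM in Ad-control 1 to 4, and at 11.5, 8.93, 9.85 and 10.6 RPKM in Ad-KLK8 1 to 4. It was 1.33-fold lower with no overlap, at a log2 change of -0.38 (SE 0.0665, adjusted p = 0.000363). That call was lost under median-of-ratios scaling, at -0.15 with an adjusted p of 0.0655 by limma. Heyl, another HEY repressor, had 1 read in all, in Ad-control 3, and a count of 0 allows up to 0.0354 to 0.0420 RPKM in a library. Hey2 and Hes5, further repressors of the families, were also too low to test. Hey2 stood at 0.706, 0.651, 0.338 and 0.365 RPKM in Ad-control 1 to 4 and at 0.0213, 0.155, 0.0426 and 0.0211 RPKM in Ad-KLK8 1 to 4, from 96 reads, with no overlap. Hes5 was at 0 in all 8 libraries.

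**Figure D3:**
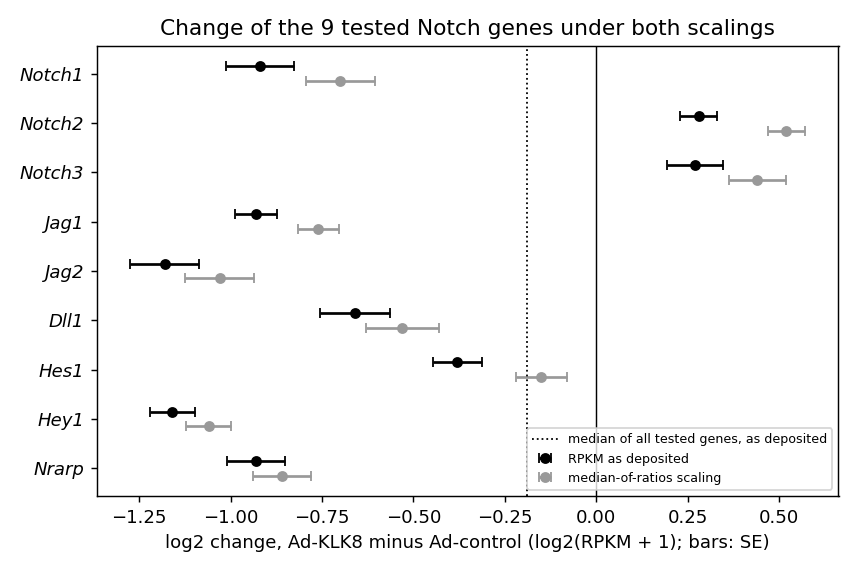
Log2 change (Ad-KLK8 minus Ad-control) of the 9 tested genes with its standard error, on the deposited RPKM scale and after median-of-ratios scaling. The direction is the same for each gene under both, and Hes1 moves from -0.38 to -0.15.

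Summed levels of marker lists are given beside these levels, and those of lung epithelium and arterial endothelium overlapped between the groups. The calls in these lists stand beside 25.7% of all tested genes higher and 52.0% lower. Of 12 fibroblast markers, 9 were higher and 3 lower, and they summed to 5480 to 5690 RPKM under Ad-KLK8. Mesothelial markers summed to 569 to 620 RPKM under Ad-KLK8, with 5 of 7 higher, 1 lower and 1 not past the threshold. The 15 endothelial markers summed to 29.3 to 32.3 RPKM under Ad-control and 19.5 to 23.4 RPKM under Ad-KLK8, mostly Esam, Egfl7 and Eng. Only 4 of them were tested, 3 lower and 1 not past the threshold. Of 7 DNA replication genes, all were lower, at 457 to 503 RPKM and 66.6 to 77.2 RPKM in sum. The 9 leukocyte markers summed to 113 to 250 RPKM and 69.3 to 103 RPKM, with Ly6g among those at 0. Of the 4 leukocyte markers tested, 3 were lower and 1 not past the threshold. The 9 lung epithelial markers summed to 0.852 to 6.71 RPKM and 0.617 to 2.99 RPKM, with Scgb1a1 at 0. The 8 arterial markers, mostly Efnb2, summed to 36.7 to 41.3 RPKM and 40.2 to 47.1 RPKM. The part of any of these in the Notch results was not tested.

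The other steps of the pathway were read from 102 further genes, of which 82 were tested. Of these 25 were higher and 32 lower, 69.5% in all, below the 77.7% of all tested genes, and their median change was -0.02. After median-of-ratios scaling 42 were higher and 25 lower, 67 of the 82 in all, with a median of 0.18. That share was above the 77.3% of all tested genes, so the order of the 2 shares depended on the scaling. The counts by step below stand beside 25.7% of all tested genes higher and 52.0% lower as deposited, and 39.9% and 37.3% after that scaling. The listed genes thus moved in both directions.

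Both proteases of the outer receptor cut were higher. Adam10, the main protease of the outer cut, stood at 38.7, 39.2, 40.2 and 36.9 RPKM in Ad-control 1 to 4, and at 59.8, 51.5, 61.0 and 61.8 RPKM in Ad-KLK8 1 to 4. It rose by 0.58 on the log2 scale (SE 0.0585, adjusted p = 5.55e-06). Adam17, which also sheds many other surface proteins, rose from 20.3 ± 0.679 to 30.1 ± 1.07 RPKM (log2 change 0.54, SE 0.0414, adjusted p = 6.21e-07).

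Of the 6 tested gamma-secretase genes, 5 were higher and none lower, beside 25.7% of all tested genes higher, and Aph1b was not past the threshold. After median-of-ratios scaling all 6 were higher, beside 39.9%. Ncstn, the substrate-binding subunit, rose from 44.2 ± 1.77 to 58.4 ± 3.42 RPKM. Psen2, a catalytic subunit, rose from 26 ± 3.42 to 34.6 ± 3.31 RPKM. Aph1a rose from 18.4 ± 0.787 to 21.4 ± 1.51 RPKM. Aph1b and Aph1c are near-identical copies and uncertain.

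Receptor and ligand handling gave mixed counts. Pofut1, which puts the O-fucose on Notch that ligand binding needs, rose from 6.10 ± 0.425 to 9.09 ± 0.711 RPKM (adjusted p = 3.69e-05), and Poglut1, which adds O-glucose, from 16.8 to 20.1 RPKM. Of 5 tested genes of this step, 2 were higher and 3 not past the threshold, and all 5 were higher after median-of-ratios scaling. Of 6 genes of ligand endocytosis, Mib1 and Mib2 were higher (4 genes after median-of-ratios scaling) and Neurl1b fell from 1.12 ± 0.118 to 0.260 ± 0.0596 RPKM. Neurl1b passed the filter of a mean of 0.5 RPKM through its level under Ad-control alone. Mib1 and Mib2 are ubiquitin ligases that act on the ligands. The call of Mib2 (log2 change 0.18, adjusted p = 0.0263 by limma) was lost without Ad-control 2 (0.12) and without Ad-KLK8 1 (0.18), 2 (0.17) or 4 (0.17). Mfap5 fell (17.1 to 7.48 RPKM) and Mfap2 rose (1.01 to 3.09 RPKM), both microfibril proteins reported to bind Jagged ligands or Notch.

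The nuclear step was led by Rbpj, the DNA-binding protein of the pathway. It measured 15.7, 15.2, 15 and 16.9 RPKM in Ad-control 1 to 4, and 8.01, 7.12, 8.00 and 7.83 RPKM in Ad-KLK8 1 to 4. Every library labelled Ad-KLK8 was under every library labelled Ad-control. The change was -0.93 on the log2 scale (SE 0.0532, adjusted p = 7.26e-08), and -0.71 after median-of-ratios scaling. Of 9 genes of this step, 1 was higher, 3 lower and 5 not past the threshold, against 5 higher, 1 lower and 3 not past it after median-of-ratios scaling. Maml1, a Mastermind coactivator, was lower at -0.31, but at -0.08 after median-of-ratios scaling (adjusted p = 0.153 by limma).

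Of 16 genes listed as RBPJ corepressors, 5 were higher and 7 lower, against 8 and 6 after median-of-ratios scaling. Rbbp5, in that list but known as a subunit of histone methyltransferase complexes rather than as a corepressor, fell from 13.8 to 5.81 RPKM. Ctbp2 fell from 19.6 to 10.9 RPKM and Tle1, a Groucho-family corepressor, from 4.81 to 2.76 RPKM. Of 15 tested negative regulators, 3 were higher and 7 lower, a balance that turned to 6 higher and 4 lower after median-of-ratios scaling. Nedd4l, a ubiquitin ligase, fell from 5.30 ± 0.248 to 1.84 ± 0.0963 RPKM, and Bcl6, a transcriptional repressor, from 7.60 to 4.60 RPKM. Skp1a, a subunit of SCF ubiquitin ligases, rose from 49.0 ± 4.04 to 65.1 ± 1.25 RPKM (log2 change 0.41, adjusted p = 5.5e-05 by limma).

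Of 17 tested genes from a list of other reported Notch targets, 11 were lower and 4 higher, beside 52.0% and 25.7% of all tested genes. After median-of-ratios scaling 10 were lower and 4 higher, beside 37.3% and 39.9%. Flt1, counted among the lower genes, passed the filter through its level under Ad-control alone (1.29 RPKM, and 0.176 RPKM under Ad-KLK8). The median change of the list was -0.60 (-0.45 after median-of-ratios scaling). Snai2, a repressor active in epithelial-mesenchymal transition, stood at 21, 21.4, 20.0 and 20.2 RPKM in Ad-control 1 to 4, and at 2.17, 1.73, 2.44 and 2.57 RPKM in Ad-KLK8 1 to 4. Its log2 change was -2.75 (SE 0.0790, adjusted p = 1.41e-09). Ccnd1, the G1 cyclin D1, fell from 45.6 ± 5.08 to 15.5 ± 0.547 RPKM, and Gata3 from 4.31 ± 0.403 to 1.32 ± 0.0964 RPKM. Pdgfrb, a receptor of mural cells and fibroblasts, rose from 15.7 ± 0.540 to 34.6 ± 2.13 RPKM. Several of this list are also markers used above, among them Pdgfrb, Kdr, Efnb2, Acta2 and Myh11, or respond to many other signals. Of the 3 tested relatives of HES and HEY, Bhlhe40 fell from 36.8 ± 6.64 to 17.0 ± 2.0 RPKM and Bhlhe41 from 3.35 ± 1.15 to 0.936 ± 0.135 RPKM. Both are repressors also driven by hypoxia and the clock. The third, Hes6, was at 7.70 ± 1.27 and 8.66 ± 0.489 RPKM and not past the threshold (log2 change 0.16, adjusted p = 0.134 by limma), but was higher after median-of-ratios scaling (0.38, adjusted p = 0.00325).

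**Figure D4:**
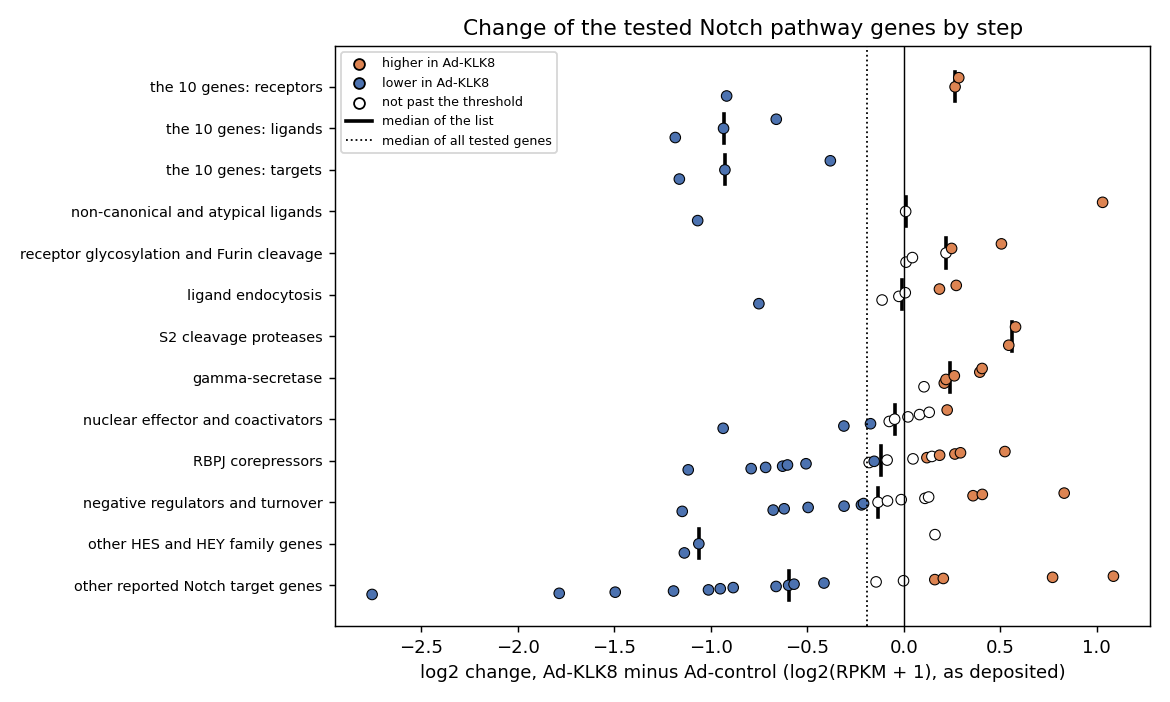
Log2 change of each tested Notch pathway gene by step (points), with the median of each list (bar) and of all tested genes (dotted line at -0.19). Both outer-cut proteases and 5 of 6 gamma-secretase genes lie above 0 as called genes, while the ligands and targets among the 10 genes lie below it.

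The genes whose profiles were most like 2 of these are named as a description over 8 libraries, by the root mean square difference of centred log2 profiles among 11176 genes. Nearest to Notch2, the largest rise of the 10 on the deposited log2(RPKM + 1) scale though not by ratio, were Pik3r4 (0.0214), Slc35d2 (0.0314) and Psap (0.0395). Nearest to Jag2, the largest fall on that scale though not by ratio or after median-of-ratios scaling, were Gtf2h1 (0.0762), Tbrg4 (0.0834) and Map4k2 (0.0857). Gtf2h1 fell from 61.4 to 27.7 RPKM, Tbrg4 from 17.6 to 7.38 RPKM and Map4k2 from 7.36 to 2.78 RPKM. By ratio these falls were smaller than the 3.60-fold of Jag2, so the likeness holds on the log2(RPKM + 1) scale only. The distances are larger for Jag2 than for Notch2.

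Some of these loci overlap other transcripts in the GENCODE annotation of build GRCm38. Transcripts on the opposite strand share exonic bases with Notch1, Notch3, Dll1 and Nrarp, and Snw1, a coregulator, shares 2403 bases with Slirp. Among other pathway genes, Ncstn shares 195 bases with Copa and Adam17 311 bases with Iah1, also on the opposite strand. On the same strand, Notch2 shares 202 bases with Gm42820 and Ctbp2 210 bases with Fgfr2. No source used here gives the strand setting of the counting, so reads of opposite-strand partners could not be told apart. For same-strand partners no strand setting would separate them. Their part in the values was not tested.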

How the data were processed

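RNA was sequenced from 8 mouse libraries, 4 per labelled group, with a stranded mRNA kit per the labels' protocols. The authors deposited 1 table of RPKM values. Trimmomatic, HISAT2, SAMtools, Cufflinks and DESeq are named without roles, and build GRCh38, a human build, per the submitters' processing notes, while the symbols are mouse. The deposited values were whole multiples of 1 read (tolerance 0.001 read) in all 17461 genes above 0, so reads were recovered; the table held 99.93% to 99.95% of the RPKM denominator. The test was limma 3.58.1 in R 4.3.3 (eBayes with trend, two-sided) on log2(RPKM + 1) for the 11998 genes averaging 0.5 RPKM or more, group as the only term, adjusted p of 0.05. Fold changes on this scale understate low genes. Intervals and floors (3 reads) cover counting error only. Tables used pandas 2.3.3 and scipy 1.17.1 in Python 3.11.15. Alternatives were other pseudocounts, filters, scalings and priors, voom on recovered reads, a replicate block and leaving out each library. The fit was tested on simulated data.

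The members and lists were chosen with earlier results of these data known. Named are all 10 members, Klk8, up to 4 genes of smallest adjusted p per list, Notch4, Dll4, Rbpj, Hes5, Hey2, and the 3 nearest profiles to the largest rise and fall; a gene this rule names is not reported here. Markers were named after their values were seen. Gene positions and overlaps came from RefSeq and GENCODE M21 on GRCm38, matched by symbol. Libraries of a group were compared by chi-square per degree of freedom: 2.09 to 18.7, where sampling noise gives about 1. Pairs among Ad-KLK8 1, 3 and 4 were at 2.09 to 2.58, and Ad-control 1 and 3 at 2.39. Every other pair was at 6.06 or more. Spread above sampling noise may still be technical, so these values cannot show whether the libraries are separate samples. All 8 were kept.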

Additional observations from a re-analysis of the deposited data

Results flagged for a closer look

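A library of the 4 in a group was tested for standing far from the rest with Dixon's criterion at the 95% level, in 96 groups of 4 values. Chance flags about 1 in 20 groups, and 8 values were marked, on 3 of the 8 libraries. In Ad-KLK8 2, Notch1 was at 3.74 RPKM against 5.11 to 5.36 in the others of its group, and Notch2 at 25.8 RPKM against 28.1 to 28.6. The same library held 3260 RPKM of Klk8 against 1160 to 1350, 39.5 RPKM of Psen2 against 32.4 to 33.5, and 0.155 RPKM of Hey2 against 0.0211 to 0.0426. In Ad-KLK8 3, Poglut1 was at 20.2 RPKM against 20.0, and Mib2 at 10.4 RPKM against 11.3 to 11.5. In Ad-control 3, Gata3 was at 3.71 RPKM against 4.43 to 4.55. Of these 8, 5 fell on Ad-KLK8 2, the library that also lay farthest from its group over all tested genes.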

How the results depend on the processing

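Over 20 alternatives, 171 of 175 values of single genes among the 10 kept their direction and side of the threshold. The other 4 were Hes1 under median-of-ratios, upper-quartile, quantile scaling and voom, each at -0.15 with adjusted p of 0.0655, 0.0649, 0.0662 and 0.0961 (limma). The number of the 10 past the threshold was 8 or 9 throughout. Without Ad-KLK8 2 it was 9. All genes past the threshold numbered 8775 to 10668, and the other pathway genes 53 to 70. All genes higher under Ad-KLK8 numbered 3079 as deposited, and 4791, 4784, 4877 and 4880 under median-of-ratios, upper-quartile and quantile scaling and voom. Of 719 values of 36 other pathway genes, 680 were alike, 10 lost and 16 gained the call, and 13 changed sign. Those 13 were Egfl7 at -0.03 in TPM and, among its values of -0.05 to 0.10 when each library was left out, the 4 at or below 0 without Ad-control 3 (-0.05) or without Ad-KLK8 1 (-0.00), 2 (-0.02) or 4 (-0.03), Furin at -0.00 in TPM, Neurl1a at 0.07, 0.07, 0.19 and 0.10 and Snw1 at 0.07, 0.07 and 0.08, under the scalings and voom named above, Snw1 not under quantile scaling. The cause was not tested. Klk8 ranged from -0.04 (without Ad-KLK8 2) to 0.46 when each library was left out, and was 0.55 after median-of-ratios scaling (two-sided exact permutation test, p = 0.0857). Same-numbered libraries did not deviate together (r from -0.0905 to 0.0106, with 0 of 8 libraries correlating best with their own number). No pairing by number was thus seen, though a pairing without shared deviation over all tested genes would not show here. With the replicate block 9170 genes were past the threshold against 9322, and all 9 tested genes of the 10, and 56 against 57 other pathway genes. All 48 share values stayed within the spread between replicates. Nrarp and Hey2 rest on few reads, and Heyl on 1.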
